A study of Homo sapiens with 30 samples.

Results

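DNA replication and G1/S genes are the 50 genes of a fixed list whose products license replication origins, unwind and copy DNA, supply nucleotides or drive entry into S phase. They were found by gene symbol in each of the 3 expression matrices, with 50 matched among 62710 genes in IMR32 and 49 among 57905 genes in each of NGP and SK-N-BE(2)c, where UHRF1 was not matched. Every matched member passed the filter on low values, a mean normalized count of at least 10, and the lowest mean of any member was 106. All 3 lines are established neuroblastoma lines that carry amplified MYCN. Cells had received an antisense oligonucleotide (ASO) at 100 nM with a lipid reagent, either the control ASO called NCA or ASO1, ASO2 or ASO10, which target NESPR, a long non-coding RNA. IMR32 had 4 libraries each of ASO1, ASO2 and NCA, and NGP and SK-N-BE(2)c each had 3 of ASO2, ASO10 and NCA. All groups share the transfection, no group was left untransfected, and the labels give neither the time to harvest nor whether replicates were separate cultures, so p-values measure the spread between these libraries only. For SK-N-BE(2)c and NGP the column of NCA replicate 1 is spelled differently from those of replicates 2 and 3, and the labels do not settle whether one control oligonucleotide was used.

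Replication begins when the origin recognition complex (ORC1 to ORC6), CDC6 and CDT1 load the MCM2 to MCM7 helicase onto DNA in G1. At the G1/S transition E2F factors and cyclin E with its kinase drive transcription of many of these genes, and MCM10, CDC45 and the GINS complex switch the helicase on. DNA polymerase alpha with primase (POLA1, POLA2, PRIM1, PRIM2) lays down primers, RFC loads the PCNA clamp, polymerases delta and epsilon extend, and FEN1 and LIG1 finish the lagging strand. These genes are abundant in dividing cells, and neuroblastoma lines divide fast.

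The depth of a library was between 9393587 and 13932379 reads for IMR32, between 11591178 and 13795561 for NGP and between 11497829 and 15060356 for SK-N-BE(2)c. More genes had a read with ASO10 than in the other groups of its line. In NGP they were 23722 to 23934 with ASO10, 21253 to 21920 with ASO2 and 21615 to 22030 with NCA. In SK-N-BE(2)c they were 21518 to 21815, 19235 to 20236 and 19939 to 20327. IMR32, where more genes were listed, had 28268 to 32492. The cause of these differences was not tested. All 10 neuroblastoma markers listed (such as HAND2, GATA3 and DBH) had a mean of at least 10 in every line. Their summed level in SK-N-BE(2)c was 85837 to 95185 with NCA, 75849 to 79269 with ASO2 and 73851 to 77364 with ASO10, and in NGP 94410 to 97948, 85138 to 90284 and 90965 to 94097, so both ASOs lay below NCA in these lines. In IMR32 it was 54961 to 57551 with NCA and overlapped that with ASO1 (50043 to 55343) and ASO2 (51113 to 57361). Of 8 markers of other cell types, CD3E was at 0 in every library and PTPRC at 0 in NGP, and 1 of 8 (COL1A1) in IMR32, 1 of 7 in SK-N-BE(2)c and 3 of 7 (EPCAM, COL1A1, COL3A1) in NGP had a mean of at least 10 normalized counts. The summed level of the 8 moved with the groups: it was 832 to 1006 with ASO2, 699.9 to 806 with ASO1 and 650.1 to 733 with NCA in IMR32, and 309 to 348 with ASO2, 223 to 289 with ASO10 and 218 to 240.4 with NCA in NGP. In SK-N-BE(2)c it was 22.7 to 45.6 with ASO2, 24.9 to 33.8 with ASO10 and 8.07 to 16.4 with NCA. The part of such cells, and of the neuroblastoma markers' decrease, in the results was not tested. In IMR32 the libraries numbered 1 deviated from their group means together, with correlations of 0.261 to 0.332 over genes between groups. A change in a bulk sample may be fewer cells of a kind or less RNA per cell, and these cannot be told apart.

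Promoters of the subunits of polymerase alpha and primase, which include 2 of the 3 members called lower in every comparison with NCA, and of E2F1 are printed here because E2F sites are the known control elements of G1/S genes. The sequences are the 250 bases before the annotated start, 5′ to 3′ on the gene's strand, from RefSeq (GRCh38.p14). Capitals mark any of 4 E2F motifs of 8 letters: TTTCCCGC, TTTCGCGC, TTTGCCGC and TTTGGCGC on either strand, which in these sequences reads as the motif or as its reverse complement.
POLA1, chrX:24693668-24693917, plus strand: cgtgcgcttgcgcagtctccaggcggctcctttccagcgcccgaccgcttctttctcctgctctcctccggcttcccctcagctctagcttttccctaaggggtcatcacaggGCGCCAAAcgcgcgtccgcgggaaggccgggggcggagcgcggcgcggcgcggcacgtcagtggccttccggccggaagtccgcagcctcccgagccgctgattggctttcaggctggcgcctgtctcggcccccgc
POLA2, chr11:65261712-65261961, plus strand: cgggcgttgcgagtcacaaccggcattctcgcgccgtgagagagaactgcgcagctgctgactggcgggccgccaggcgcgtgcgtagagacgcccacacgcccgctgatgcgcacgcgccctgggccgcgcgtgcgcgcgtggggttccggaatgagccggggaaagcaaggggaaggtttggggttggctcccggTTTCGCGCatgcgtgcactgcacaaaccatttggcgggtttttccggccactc
PRIM1, chr12:56752324-56752573, minus strand: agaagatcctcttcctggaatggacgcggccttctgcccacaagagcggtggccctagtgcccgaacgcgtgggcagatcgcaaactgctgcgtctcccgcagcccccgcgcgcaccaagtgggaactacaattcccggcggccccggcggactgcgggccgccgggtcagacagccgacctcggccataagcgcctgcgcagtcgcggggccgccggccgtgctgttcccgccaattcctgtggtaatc
PRIM2, chr6:57317380-57317629, plus strand, 1 of the 2 windows listed for it: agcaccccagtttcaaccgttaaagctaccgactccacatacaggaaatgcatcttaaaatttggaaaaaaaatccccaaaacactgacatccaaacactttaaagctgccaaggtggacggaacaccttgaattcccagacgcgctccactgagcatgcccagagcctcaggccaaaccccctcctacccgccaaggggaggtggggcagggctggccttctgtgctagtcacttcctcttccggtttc
E2F1, chr20:33686386-33686635, minus strand: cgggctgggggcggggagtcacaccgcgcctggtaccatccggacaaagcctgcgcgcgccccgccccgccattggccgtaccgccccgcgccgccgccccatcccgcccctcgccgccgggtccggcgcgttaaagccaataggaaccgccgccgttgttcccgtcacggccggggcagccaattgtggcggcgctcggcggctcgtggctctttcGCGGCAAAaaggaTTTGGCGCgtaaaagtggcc
POLA1 and POLA2 each held 1 match, E2F1 held 2, and PRIM1 and PRIM2 held 0 of these letters. Over windows reaching 50 bases past the start, 22 of the 43 members with a window (51.2%) held a motif, against 1090 of 27305 genes in the promoter table (3.99%). The other 7 members, MCM4, MCM5, GINS4, POLD3, RPA2, RPA3 and CCNE2, have no window in it. A match describes letters, not a bound site.

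In IMR32 a minority of members was called, and their number varied with the libraries used. Expression was compared on log2(normalized count + 1) with limma over all genes of a line, and a gene was called at an adjusted p (Benjamini-Hochberg) under 0.05. ASO1 against NCA called 1 of 50 members higher and 11 lower, where 13.6% and 14.4% of all 17309 genes tested were called (28% in all). ASO2 against NCA called 3 higher and 6 lower, against 17.6% and 14.8% of genes (32.4% in all). Between the ASOs, 1 member was higher and 7 were lower with ASO1 than with ASO2, against 9.17% and 12.8% of genes (21.9% in all). In each of these comparisons, fitted without a replicate block, the share of members called, in both directions together, was below that of all genes. With the replicate number as a block 22, 20 and 19 members were called. Without ASO1 replicate 3 or NCA replicate 2, the members called lower with ASO1 were 7 and 6. Without the libraries numbered 1, a choice made after seeing the data, 19 members were called for ASO1 against NCA (3 higher, 16 lower). For ASO2 against NCA 15 were called (5 and 10), and for ASO1 against ASO2 14 (2 and 12). The share of all genes called is not given for this setting or for the block, so these counts cannot be set against it. The higher calls with ASO1 became 2 without ASO1 replicate 2 or ASO2 replicate 1 and 3 without NCA replicate 1. The higher calls with ASO2 became 6 without ASO1 replicate 1 or ASO2 replicate 3 and 5 without NCA replicate 1, and the lower calls became 3 without ASO2 replicate 4. For ASO1 against ASO2 the number called ran from 3 without ASO2 replicate 2 to 13 without ASO1 replicate 1 or ASO2 replicate 3, with 4 without ASO1 replicate 2 or 3 and 5 without ASO1 replicate 4 or ASO2 replicate 4. The lower calls among these were 4 without ASO2 replicate 1.

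In NGP and SK-N-BE(2)c most members were called, as were most genes. NGP with ASO2 had 8 of 49 members higher and 23 lower than with NCA, against 30.6% and 28.1% of 14440 genes (58.7% in all). NGP with ASO10 had 5 higher and 25 lower, against 26.8% and 27.6% (54.4% in all). SK-N-BE(2)c with ASO2 had 13 higher and 23 lower, against 33.6% and 33.4% of 13556 genes (67% in all), and with ASO10 15 higher and 17 lower, against 27.8% and 31.1% (58.9% in all). Of the 10 neuroblastoma markers, 4 were called higher and 5 lower with ASO2 in SK-N-BE(2)c, and 0 and 7 with ASO10. In NGP 2 were called higher and 5 lower with ASO2, and 1 and 6 with ASO10. In IMR32 they were 1 and 4 with ASO1 (13.6% and 14.4% of genes) and 0 and 4 with ASO2 (17.6% and 14.8%). The replication members leaned to lower values in NGP. Their median log2 change was -0.18 for ASO2 and -0.14 for ASO10, where the median over all genes was 0.0090 and -0.026. The members' medians in SK-N-BE(2)c were -0.11 and -0.0036, against -0.016 and -0.031 over all genes. Between the ASOs, 14 members were higher and 16 lower with ASO2 than ASO10 in NGP, against 30.6% and 28% of genes (58.6% in all), and 13 were higher and 23 lower in SK-N-BE(2)c, against 34.6% and 30.8% (65.4% in all). The higher calls with ASO10 in NGP fell to 3 without ASO10 replicate 2. The map of members by comparison shows these calls by role.

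**Figure D1:**
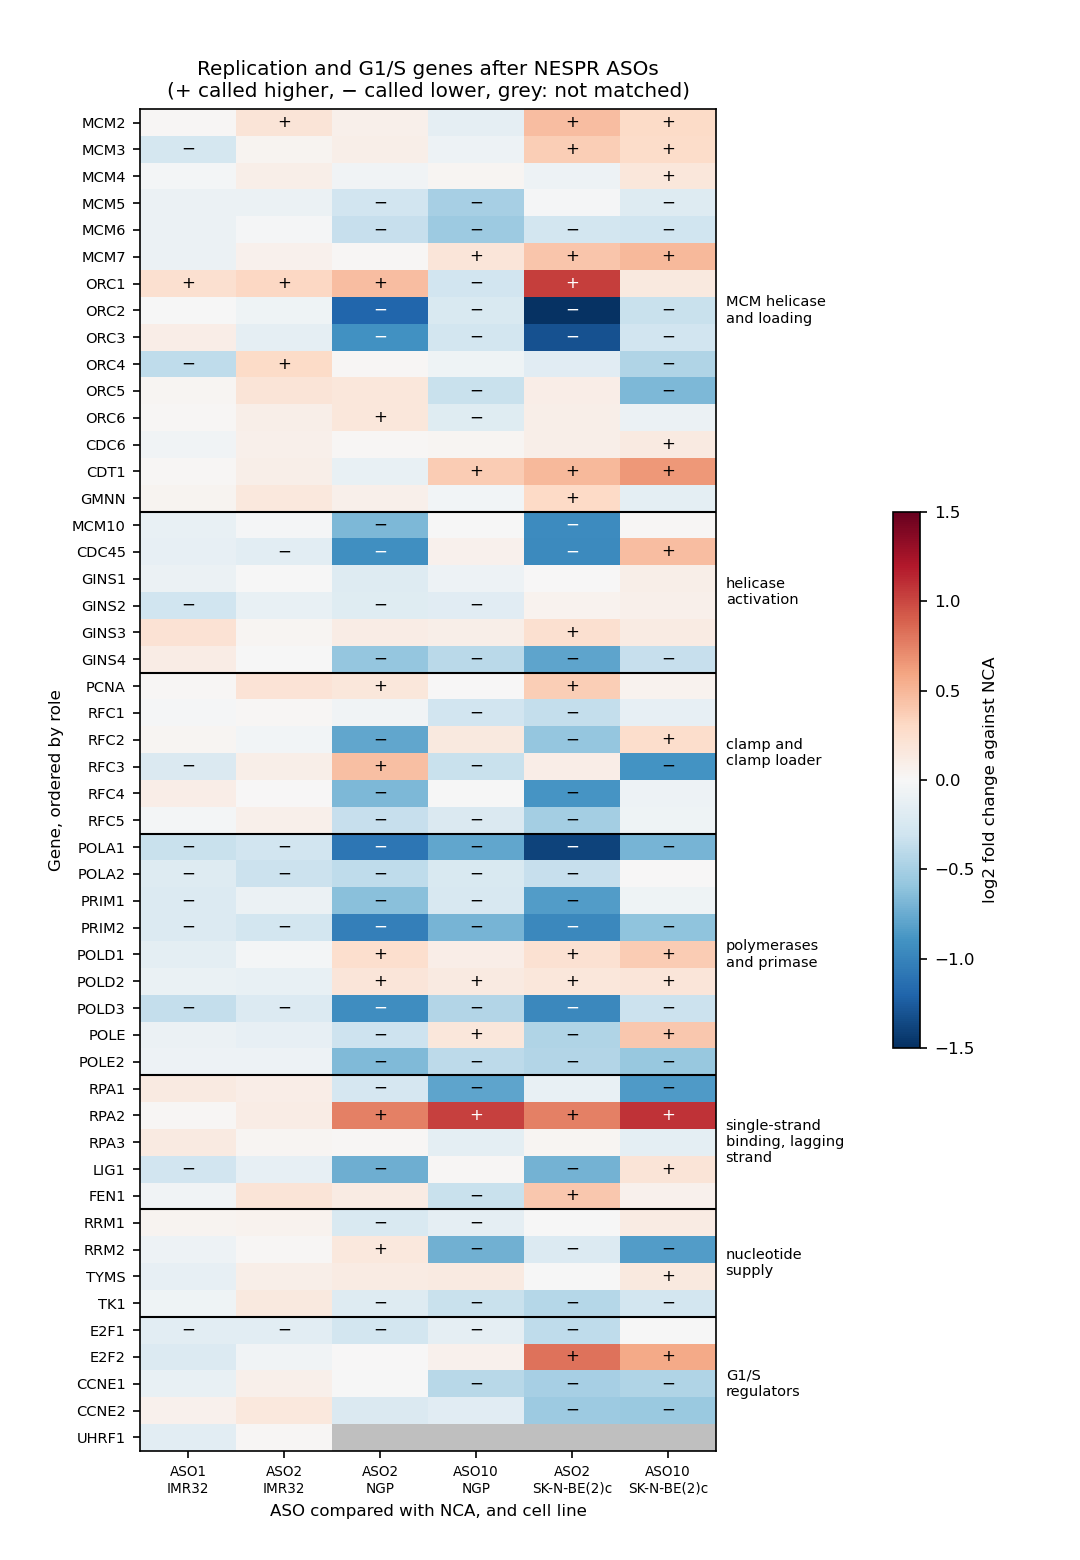
Log2 fold change of each of the 50 members (rows, by role) against NCA in the 6 comparisons of an ASO with NCA (columns); plus and minus signs mark calls at an adjusted p under 0.05, and grey marks UHRF1 where it was not matched. POLA1, PRIM2 and POLD3 carry a minus in every column, and colours are deeper in NGP and SK-N-BE(2)c than in IMR32.

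The split of calls into higher and lower changed in several comparisons when each library was scaled to the same total. With TMM, edgeR and DESeq2, ASO2 against NCA stayed at 13 higher and 23 lower in SK-N-BE(2)c. In NGP it gave 8 higher and 23 to 24 lower with these. ASO10 against NCA gave 5 higher and 20 to 22 lower in NGP and 17 and 17 in SK-N-BE(2)c. With each library brought to the same total, the calls became 3 higher and 10 lower for ASO1 against NCA in IMR32. They became 3 and 9 there for ASO2 against NCA and 2 and 3 for ASO1 against ASO2. In NGP they became 4 higher and 26 lower for ASO2 against NCA, 5 and 26 for ASO10 against NCA and 11 and 20 for ASO2 against ASO10. They became, in SK-N-BE(2)c, 13 and 18 for ASO10 against NCA, 10 and 29 for ASO2 against NCA and 8 and 27 for ASO2 against ASO10. That scaling moved the median over all genes from -0.016 to -0.15 and from 0.035 to -0.079 in those last 2 comparisons. Of the 160 calls of named members, 147 held under it, 13 were lost and 0 changed direction.

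ORC1, ORC2 and ORC3, genes of origin recognition, separated ASO2 from ASO10. ORC2 and ORC3, subunits of the complex that marks origins, fell with ASO2 in NGP and SK-N-BE(2)c and less with ASO10, and the fall of ORC2 with ASO2 was the largest of any member in both lines. ORC2 (ENSG00000115942) read 403, 435 and 407 with ASO2, 808, 772 and 837 with ASO10 and 883, 901 and 1056 with NCA in NGP. Its SK-N-BE(2)c libraries read 300.5, 375 and 329.9 with ASO2, 757, 714 and 760.5 with ASO10 and 919, 957 and 938 with NCA. All ASO2 libraries lay below all others, and the ASO10 libraries lay between them and NCA. The log2 change with ASO2 was -1.18 (SE 0.077, adjusted p = 3.1e-12) in NGP and -1.49 (SE 0.079, adjusted p = 3.04e-15) in SK-N-BE(2)c. With ASO10 it was -0.23 (SE 0.077, adjusted p = 0.015) and -0.33 (SE 0.079, adjusted p = 0.000668), of which the NGP call was lost without ASO10 replicate 2 or NCA replicate 3 (adjusted p of 0.064 to 0.0989). The direct comparison of ASO2 with ASO10 gave -0.96 (SE 0.077, adjusted p = 1.04e-10) and -1.15 (SE 0.079, adjusted p = 4.62e-13). In IMR32, ORC2 ran from 756 to 918 over all 12 libraries and was not called.

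ORC3 (ENSG00000135336) had the same order of groups. NGP libraries read 471, 461 and 420.5 with ASO2, 677, 662 and 760.4 with ASO10 and 838, 828 and 878 with NCA. SK-N-BE(2)c libraries read 281, 297 and 275 with ASO2, 597, 528 and 599 with ASO10 and 642, 709.8 and 758 with NCA. No groups overlapped in either line. The change with ASO2 was -0.91 (SE 0.076, adjusted p = 2.45e-10) in NGP and -1.30 (SE 0.084, adjusted p = 1.28e-13) in SK-N-BE(2)c, and with ASO10 -0.28 (SE 0.076, adjusted p = 0.0033) and -0.29 (SE 0.084, adjusted p = 0.00406). ASO2 lay below ASO10, at log2 differences of -0.63 and -1.01. In IMR32 ASO1 gave 506, 537, 469 and 516, ASO2 461, 379.5, 430.3 and 452 and NCA 517, 488, 445 and 441. Neither ASO differed from NCA by call there, and ASO1 lay above ASO2 by 0.24 (SE 0.071, adjusted p = 0.0208), a call lost without ASO1 replicate 2 or 4 or ASO2 replicate 2 (adjusted p of 0.0531 to 0.0934).

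ORC1, the subunit whose level follows the cell cycle, went the other way. ORC1 (ENSG00000085840) read 1200, 1012 and 1086 with ASO2, 665, 607 and 701 with ASO10 and 768, 796 and 832 with NCA in NGP. The SK-N-BE(2)c libraries read 1447, 1408 and 1626 with ASO2, 758, 853 and 800.1 with ASO10 and 679, 757 and 748 with NCA. In IMR32 it read 925, 857, 886 and 902 with ASO1, 983, 963, 821 and 992 with ASO2 and 767, 754, 730.3 and 774 with NCA. ASO2 libraries were above all NCA libraries in every line. The rise with ASO2 was 0.31 (SE 0.058, adjusted p = 0.000417) in IMR32, 0.46 (SE 0.075, adjusted p = 1.14e-05) in NGP and 1.03 (SE 0.071, adjusted p = 5.09e-13) in SK-N-BE(2)c. ASO1 in IMR32 raised it by 0.24 (SE 0.058, adjusted p = 0.00382), and ASO1 and ASO2 overlapped. ASO10 lowered ORC1 in NGP, at -0.28 (SE 0.075, adjusted p = 0.0027), and gave 0.14 (SE 0.071, adjusted p = 0.0883) in SK-N-BE(2)c, which was not called. ASO2 against ASO10 gave 0.74 (SE 0.075, adjusted p = 5.9e-09) and 0.89 (SE 0.071, adjusted p = 1.08e-11).

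ORC4 was the member on which the ASOs of IMR32 differed most. ORC4 (ENSG00000115947) read 563, 570.5, 472 and 516 with ASO1, 851, 855, 833 and 834 with ASO2 and 754, 717, 662 and 634 with NCA, and the 3 groups did not overlap. Against NCA the change was -0.38 (SE 0.065, adjusted p = 0.000149) with ASO1 and 0.29 (SE 0.065, adjusted p = 0.002) with ASO2, and between them -0.67 (SE 0.065, adjusted p = 3.57e-07). Opposite calls by the ASOs of IMR32 were made for 0.965% of all genes tested, and the 2 comparisons share their NCA libraries. In NGP, ORC4 ran from 654 to 832 over the 9 libraries with no call. Values in SK-N-BE(2)c were 330.4, 319 and 302 with ASO2, 265, 241 and 281 with ASO10 and 359, 329 and 389 with NCA. ASO10 alone was called there, at -0.45 (SE 0.096, adjusted p = 0.000229). It also lay below ASO2 (0.27, SE 0.096, adjusted p = 0.0143 for ASO2 against ASO10), a call lost without ASO2 replicate 1 or ASO10 replicate 2 (adjusted p of 0.0527 to 0.0757) and with equal totals (0.142).

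ORC6 (ENSG00000091651) read 1340, 1390 and 1309 with ASO2, 1007, 1060 and 1092 with ASO10 and 1153, 1175 and 1252 with NCA in NGP, a small difference with no overlap of groups. ASO2 gave 0.17 (SE 0.062, adjusted p = 0.0184), ASO10 -0.18 (SE 0.062, adjusted p = 0.0166) and the direct comparison 0.35 (SE 0.062, adjusted p = 2.52e-05). The call with ASO2 was lost without ASO2 replicate 2 or NCA replicate 1 (adjusted p of 0.0713 to 0.0839) and with equal totals (0.152). That with ASO10 was lost without ASO10 replicate 1 or NCA replicate 3 (adjusted p of 0.0513 to 0.0924). ORC6 also separated the ASOs in SK-N-BE(2)c. It ran there from 977 to 1174, with 0.17 (SE 0.064, adjusted p = 0.0204) for ASO2 against ASO10, a call lost without ASO2 replicate 2 or ASO10 replicate 2 (adjusted p of 0.0741 to 0.0818), and with equal totals (0.419), with TMM scaling (0.0594), with edgeR (0.0602) and with DESeq2 (0.0601). In IMR32 it ran from 981 to 1224 with no call. ORC5 was called lower with ASO10 in both lines, at -0.67 in SK-N-BE(2)c and -0.34 in NGP, and was not called with ASO2.

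Of the factors that load the helicase, CDC6 was called once and CDT1 rose in SK-N-BE(2)c. CDC6 (ENSG00000094804), the ATPase that joins ORC, ran from 2087 to 2330 in SK-N-BE(2)c, 1640 to 1802 in NGP and 969 to 1317 in IMR32. Its 1 call was 0.13 (SE 0.053, adjusted p = 0.0365) for ASO10 in SK-N-BE(2)c, lost without ASO10 replicate 2 or 3 or NCA replicate 1, 2 or 3 (adjusted p of 0.0596 to 0.107), and with no filter (0.0716) and with equal totals (0.0881). CDT1 (ENSG00000167513), which brings the helicase, read 1602, 1500 and 1425 with ASO2, 1584, 1795 and 1682 with ASO10 and 1166, 1081 and 989.8 with NCA in SK-N-BE(2)c. In NGP it read 803, 844 and 855 with ASO2, 1165, 1232 and 1106 with ASO10 and 925, 995 and 789 with NCA. Both ASOs lay above NCA in SK-N-BE(2)c, and in NGP ASO10 did. The changes were 0.49 (SE 0.068, adjusted p = 3.74e-07) and 0.65 (SE 0.068, adjusted p = 3.99e-09) in SK-N-BE(2)c and 0.38 (SE 0.076, adjusted p = 0.00018) with ASO10 in NGP. ASO2 in NGP gave -0.11 (SE 0.076, adjusted p = 0.231), and lay below ASO10, at -0.48 (SE 0.076, adjusted p = 6e-06). In IMR32, CDT1 ran from 232 to 317 with no call. The ASO2 libraries of SK-N-BE(2)c overlapped those of ASO10, at -0.16 (SE 0.068, adjusted p = 0.0395), a call lost without ASO2 replicate 2 or 3 or ASO10 replicate 2 or 3 (adjusted p of 0.0858 to 0.182) and with no filter (0.0715). GMNN, the inhibitor of CDT1, was called higher with ASO2 in SK-N-BE(2)c (0.30) and in no other comparison with NCA.

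The MCM2 to MCM7 helicase genes did not move as one in NGP and SK-N-BE(2)c. MCM2, MCM3 and MCM7 were called higher with both ASOs in SK-N-BE(2)c, MCM6 was called lower with both ASOs in both lines, MCM5 was called lower in 3 of these 4 comparisons, and MCM4 was called in 1, higher with ASO10 in SK-N-BE(2)c. MCM7 (ENSG00000166508) read 12716, 12148 and 12421 with ASO2, 12808, 13292 and 12865 with ASO10 and 9636, 9377 and 8888 with NCA in SK-N-BE(2)c. Both ASOs were above NCA with no overlap, at 0.42 (SE 0.047, adjusted p = 7.7e-09) and 0.48 (SE 0.047, adjusted p = 9.5e-10). The NGP libraries read 7393, 7730 and 8012 with ASO2, 8495, 9361 and 8178 with ASO10 and 7864, 7788 and 7260 with NCA. ASO10 was above both other groups there, by 0.18 (SE 0.051, adjusted p = 0.00421) against NCA, a call lost without ASO10 replicate 2 (adjusted p of 0.0514). ASO2 against ASO10 in NGP gave -0.17 (SE 0.051, adjusted p = 0.00675), lost without ASO2 replicate 1 or ASO10 replicate 2 (adjusted p of 0.0528 to 0.0775). In IMR32 it read 3630, 3297, 3340 and 3571 with ASO1, 4060, 3741, 3658 and 3830 with ASO2 and 3897, 3513, 3581 and 3655 with NCA. The difference between the ASOs, -0.14 (SE 0.049, adjusted p = 0.0387), was lost without ASO1 replicate 2 or 3, ASO2 replicate 1, 2 or 4 or NCA replicate 3 or 4 (adjusted p of 0.05 to 0.128), and with no filter (0.0877) and with equal totals (0.108).

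MCM3 (ENSG00000112118) read 7536, 7688 and 8327 with ASO2, 7204, 7422 and 7489 with ASO10 and 5995, 5949 and 6328 with NCA in SK-N-BE(2)c. Both ASOs were above NCA, at 0.37 (SE 0.05, adjusted p = 2.52e-07) and 0.28 (SE 0.05, adjusted p = 2.71e-05). In NGP the values were 6167, 6592 and 6315 with ASO2, 5666, 5633 and 5724 with ASO10 and 5918, 5960 and 6072 with NCA. ASO2 was above ASO10 there, at 0.16 (SE 0.045, adjusted p = 0.00286), and neither was called against NCA. In IMR32 MCM3 read 3705, 3320, 3280 and 3542 with ASO1, 4521, 4333, 3943 and 4262 with ASO2 and 4464, 4062, 4028 and 4009 with NCA. ASO1 lay below both other groups, at -0.26 (SE 0.053, adjusted p = 0.000936) against NCA and -0.30 (SE 0.053, adjusted p = 0.000339) against ASO2. MCM2 changed by 0.47 and 0.29 in SK-N-BE(2)c, and MCM6 by -0.35 and -0.55 in NGP and -0.27 and -0.30 in SK-N-BE(2)c. Of the 15 genes of licensing as a group, 2 rose and 4 fell with ASO2 in NGP (30.6% and 28.1% of all genes did) and 2 and 7 with ASO10 (26.8% and 27.6%). In SK-N-BE(2)c 6 rose and 3 fell with ASO2 (33.6% and 33.4% of genes) and 6 and 6 with ASO10 (27.8% and 31.1%).

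Of the 6 genes that switch the helicase on, CDC45 and MCM10 were lower with ASO2 than with ASO10 in SK-N-BE(2)c and NGP. The 6 had 2 lower and 4 not called for ASO2 against ASO10 in NGP (28% of genes were lower) and 3 and 3 in SK-N-BE(2)c (30.8%). CDC45, part of the active helicase, fell with ASO2 in NGP and SK-N-BE(2)c and rose with ASO10 in SK-N-BE(2)c. CDC45 (ENSG00000093009) read 705, 903 and 656 with ASO2, 1417, 1542 and 1484 with ASO10 and 1394, 1342 and 1499 with NCA in NGP. Counts in SK-N-BE(2)c were 401, 526 and 509 with ASO2, 1228, 1271 and 1327 with ASO10 and 886, 922 and 970.5 with NCA. ASO2 libraries lay below all others in both lines, and in SK-N-BE(2)c all ASO10 libraries lay above NCA. ASO2 gave -0.91 (SE 0.084, adjusted p = 1.32e-09) in NGP and -0.96 (SE 0.081, adjusted p = 3.42e-11) in SK-N-BE(2)c. ASO10 gave 0.07 (SE 0.084, adjusted p = 0.504) in NGP and 0.46 (SE 0.081, adjusted p = 2.01e-05) in SK-N-BE(2)c. The difference between them was -0.98 (SE 0.084, adjusted p = 2.86e-10) and -1.42 (SE 0.081, adjusted p = 1.04e-14), the most negative of any member in each line. Every ASO10 library lay above every ASO2 library. In IMR32 CDC45 read 784, 788, 795 and 908 with ASO1, 846, 777, 797 and 763 with ASO2 and 905, 829, 908 and 912 with NCA. ASO2 and NCA overlapped, and the call with ASO2 (-0.16, SE 0.057, adjusted p = 0.0389) was lost without ASO2 replicate 2, 3 or 4 or NCA replicate 1, 3 or 4 (adjusted p of 0.0624 to 0.107) and with no filter (0.0866).

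MCM10, which helps open the helicase, fell with ASO2 in NGP and SK-N-BE(2)c and was not called with ASO10. In IMR32 it ran from 1521 to 1861 with no call. It read 862, 984 and 822 with ASO2, 1445, 1386 and 1396 with ASO10 and 1382, 1310 and 1561 with NCA in NGP. Its SK-N-BE(2)c libraries read 542, 665 and 709 with ASO2, 1214, 1273 and 1242 with ASO10 and 1196, 1160 and 1326 with NCA. ASO10 and NCA overlapped and ASO2 stood below both. ASO2 gave -0.67 (SE 0.073, adjusted p = 1.95e-08) and -0.95 (SE 0.079, adjusted p = 2.41e-11). Of the GINS genes, GINS4 was called lower in all 4 comparisons with NCA in these lines (-0.79 and -0.34 in SK-N-BE(2)c, -0.58 and -0.41 in NGP), and GINS1 was called in none of the 9 comparisons within a line.

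**Figure D2:**
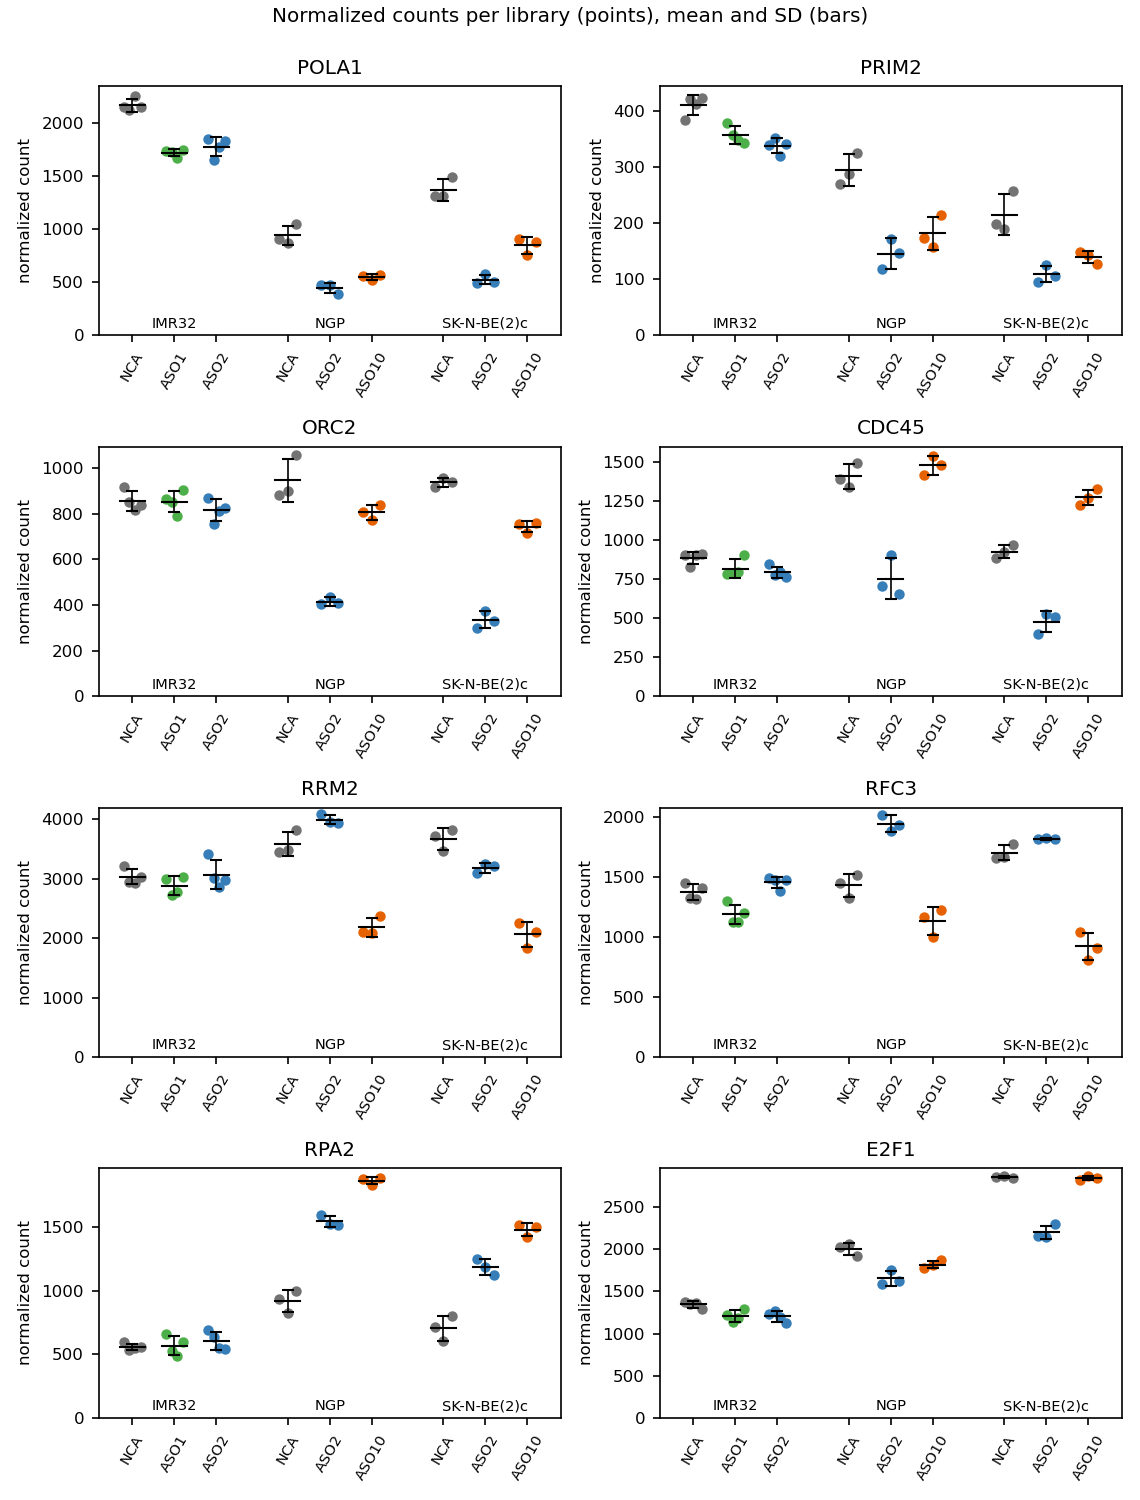
Normalized counts of 8 members (y axes, from 0) in every library; points are libraries, horizontal lines the group means and bars the SD, with NCA in grey, ASO1 green, ASO2 blue and ASO10 orange. POLA1 and PRIM2 lie below NCA with each ASO in each line, while ORC2, CDC45, RRM2 and RFC3 separate ASO2 from ASO10 in the lines that had both.

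PCNA, the sliding clamp, rose slightly with ASO2 in NGP and SK-N-BE(2)c. PCNA (ENSG00000132646) read 6746, 6433 and 7117 with ASO2, 5332, 5469 and 5493 with ASO10 and 4987, 5063 and 5635 with NCA in SK-N-BE(2)c. Values in NGP were 3853, 3653 and 3824 with ASO2, 3384, 3262 and 3449 with ASO10 and 3271, 3273 and 3523 with NCA. ASO2 was above the other groups in both lines, and ASO10 overlapped NCA. The change with ASO2 was 0.37 (SE 0.053, adjusted p = 5.55e-07) in SK-N-BE(2)c and 0.17 (SE 0.05, adjusted p = 0.00535) in NGP, the latter lost with equal totals (adjusted p of 0.0843). ASO2 lay above ASO10 by 0.32 (SE 0.053, adjusted p = 7.88e-06) and 0.17 (SE 0.05, adjusted p = 0.00637), and the NGP difference was lost with equal totals (adjusted p of 0.0677). In IMR32 PCNA ran from 1813 to 2716 with no call.

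Of the 5 genes of the clamp loader RFC, RFC2 and RFC4 were lowest with ASO2 and RFC3 was lowest with ASO10. RFC2 (ENSG00000049541) read 424, 405 and 429 with ASO2, 792, 812 and 783 with ASO10 and 692, 751 and 716 with NCA in NGP. The SK-N-BE(2)c libraries read 854, 804 and 807 with ASO2, 1423, 1493 and 1504 with ASO10 and 1215, 1178 and 1281 with NCA. ASO2 stood below NCA, and ASO10 above it, in both lines. ASO2 gave -0.78 (SE 0.071, adjusted p = 1.32e-09) and -0.57 (SE 0.062, adjusted p = 4.1e-09). ASO10 gave 0.15 (SE 0.071, adjusted p = 0.0881), not called, and 0.27 (SE 0.062, adjusted p = 0.00056). The direct differences were -0.92 (SE 0.071, adjusted p = 4.59e-11) and -0.84 (SE 0.062, adjusted p = 2.15e-12). IMR32 values ran from 428 to 496 with no call. RFC4 fell with ASO2 in NGP and SK-N-BE(2)c, with log2 changes of -0.68 and -0.88, and was not called with ASO10. In IMR32 RFC4 ran from 732 to 978 with no call. RFC5 was called lower with both ASOs in NGP (-0.35 and -0.22) and, at -0.51, with ASO2 in SK-N-BE(2)c. RFC1, the largest subunit, was called lower in NGP with ASO10 (-0.29) and in SK-N-BE(2)c with ASO2 (-0.36).

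RFC3 (ENSG00000133119) read 2019, 1885 and 1934 with ASO2, 1170, 1000 and 1226 with ASO10 and 1447, 1327 and 1516 with NCA in NGP. Values in SK-N-BE(2)c were 1814, 1827 and 1818 with ASO2, 1042, 809 and 912 with ASO10 and 1661, 1671 and 1774 with NCA. ASO10 was below the other groups in both lines. ASO10 gave -0.34 (SE 0.07, adjusted p = 0.000232) and -0.89 (SE 0.07, adjusted p = 1.34e-11). ASO2 gave 0.45 (SE 0.07, adjusted p = 6.64e-06) in NGP and 0.097 (SE 0.07, adjusted p = 0.224) in SK-N-BE(2)c, the latter not called. Between the ASOs RFC3 had the largest positive difference of any member in SK-N-BE(2)c, 0.99 (SE 0.07, adjusted p = 8.44e-13), and in NGP it was 0.79 (SE 0.07, adjusted p = 6.44e-10). In IMR32 RFC3 read 1300, 1127, 1125 and 1200 with ASO1, 1488, 1477, 1385 and 1474 with ASO2 and 1452, 1325, 1316 and 1406 with NCA. ASO1 lay below both other groups, at -0.21 (SE 0.053, adjusted p = 0.00507) and -0.30 (SE 0.053, adjusted p = 0.000435).

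A pair of the 4 polymerase alpha and primase genes and a polymerase delta gene were lower in every line. POLA1, the catalytic subunit of polymerase alpha, PRIM2, the large primase subunit, and POLD3, a subunit of polymerase delta, were called lower in each of the 6 comparisons with NCA. Of the 11594 genes tested in all lines 2.92% were, and 3.05% were called higher in all 6, with 0 members among them. The comparisons of a line share their NCA libraries, so each line's values are given. POLA1 (ENSG00000101868) read 1737, 1723, 1672 and 1745 with ASO1, 1850, 1651, 1770 and 1825 with ASO2 and 2146, 2117, 2254 and 2149 with NCA in IMR32. In NGP it read 471, 471 and 394 with ASO2, 557, 517 and 568 with ASO10 and 909, 871 and 1046 with NCA. Counts in SK-N-BE(2)c were 495, 574 and 503 with ASO2, 906, 760 and 878 with ASO10 and 1313, 1311 and 1490 with NCA. Every ASO library was below every NCA library of its line. In IMR32 the change was -0.33 (SE 0.046, adjusted p = 1.41e-05) with ASO1 and -0.29 (SE 0.046, adjusted p = 8.21e-05) with ASO2. In NGP it was -1.08 (SE 0.086, adjusted p = 9.28e-11) with ASO2 and -0.78 (SE 0.086, adjusted p = 3.07e-08) with ASO10, and in SK-N-BE(2)c -1.39 (SE 0.078, adjusted p = 9.53e-15) and -0.69 (SE 0.078, adjusted p = 1.46e-08). ASO2 lay below ASO10, at -0.30 (SE 0.086, adjusted p = 0.00385) and -0.69 (SE 0.078, adjusted p = 9.78e-09), and ASO1 and ASO2 overlapped in IMR32. Each of these calls held without any 1 library.

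PRIM2 (ENSG00000146143) read 379, 358, 348 and 342 with ASO1, 340.3, 352, 319.8 and 340.5 with ASO2 and 385, 422, 412 and 423 with NCA in IMR32. The NGP libraries read 118, 173 and 147 with ASO2, 173, 158 and 215 with ASO10 and 270.4, 288 and 326 with NCA. Its SK-N-BE(2)c libraries read 96.1, 125 and 107 with ASO2, 149, 144 and 127 with ASO10 and 199, 189.5 and 257 with NCA. ASO and NCA libraries did not overlap in any line. The changes were -0.20 (SE 0.061, adjusted p = 0.017) and -0.28 (SE 0.061, adjusted p = 0.00163) in IMR32, of which that with ASO1 was lost without ASO1 replicate 4 or NCA replicate 2 or 4 (adjusted p of 0.0515 to 0.0539). In NGP they were -1.02 (SE 0.14, adjusted p = 5.72e-07) and -0.70 (SE 0.14, adjusted p = 0.000114), and in SK-N-BE(2)c -0.97 (SE 0.14, adjusted p = 5.71e-07) and -0.61 (SE 0.14, adjusted p = 0.000452). ASO2 and ASO10 overlapped in NGP and were apart in SK-N-BE(2)c. ASO2 against ASO10 gave -0.32 (SE 0.14, adjusted p = 0.045) in NGP, lost without ASO2 replicate 1 or 3, ASO10 replicate 1 or 3 or NCA replicate 1 (adjusted p of 0.0537 to 0.296) and with no filter (0.0776). In SK-N-BE(2)c it gave -0.36 (SE 0.14, adjusted p = 0.024), lost without ASO2 replicate 1 or 3 or ASO10 replicate 1 or 2 (adjusted p of 0.0524 to 0.115).

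The other subunits of that enzyme, POLA2 and PRIM1, fell in NGP with both ASOs and were not called with ASO10 in SK-N-BE(2)c. POLA2 (ENSG00000014138) read 717, 814 and 725 with ASO2, 829, 884 and 795 with ASO10 and 982, 970.3 and 980.4 with NCA in NGP. The SK-N-BE(2)c libraries read 503, 499.5 and 541 with ASO2, 642, 655 and 670.2 with ASO10 and 613, 656 and 688 with NCA. In IMR32 it read 468, 521, 489 and 485 with ASO1, 391, 474, 502 and 433 with ASO2 and 529, 585, 586 and 549 with NCA. ASO10 overlapped NCA in SK-N-BE(2)c, and no other ASO group overlapped its NCA. The changes were -0.19 (SE 0.07, adjusted p = 0.0429) and -0.33 (SE 0.07, adjusted p = 0.00141) in IMR32 and -0.38 (SE 0.07, adjusted p = 4.8e-05) and -0.23 (SE 0.07, adjusted p = 0.00814) in NGP. In SK-N-BE(2)c they were -0.34 (SE 0.074, adjusted p = 0.000197) and 0.0078 (SE 0.074, adjusted p = 0.936), with -0.35 (SE 0.074, adjusted p = 0.000158) between the ASOs. The call with ASO1 was lost without ASO1 replicate 1, 3 or 4, ASO2 replicate 4 or NCA replicate 2, 3 or 4 (adjusted p of 0.05 to 0.115), and with no filter (0.0767), with equal totals (0.097), with TMM scaling (0.0519) and with DESeq2 (0.0595). PRIM1, the catalytic primase subunit, changed by -0.21 and -0.09 in IMR32, the first of these called. It changed by -0.84 with ASO2 in SK-N-BE(2)c and by -0.63 and -0.24 in NGP, all called, and by -0.067 with ASO10 in SK-N-BE(2)c, not called.

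Among polymerase delta genes, POLD3 fell while POLD1 and POLD2 did not. POLD3 (ENSG00000077514) read 232, 279 and 206 with ASO2, 318, 338 and 346 with ASO10 and 451, 438 and 469 with NCA in NGP. Values in SK-N-BE(2)c were 436, 497 and 505 with ASO2, 704, 739.5 and 804 with ASO10 and 926, 962 and 909.8 with NCA. In IMR32 it read 840.5, 798, 676 and 819.6 with ASO1, 976, 833, 829 and 828 with ASO2 and 1064, 971, 997 and 967 with NCA. Groups were apart in NGP and SK-N-BE(2)c, and ASO2 replicate 1 overlapped NCA in IMR32. The changes were -0.93 (SE 0.10, adjusted p = 2.39e-08) and -0.44 (SE 0.10, adjusted p = 0.00077) in NGP and -0.96 (SE 0.075, adjusted p = 7.25e-12) and -0.32 (SE 0.075, adjusted p = 0.000689) in SK-N-BE(2)c. ASO2 lay below ASO10, at -0.49 (SE 0.10, adjusted p = 0.000183) and -0.64 (SE 0.075, adjusted p = 1.93e-08). In IMR32 they were -0.36 (SE 0.068, adjusted p = 0.000514) and -0.21 (SE 0.068, adjusted p = 0.0235), of which that with ASO2 was lost without ASO2 replicate 2, 3 or 4 or NCA replicate 1 (adjusted p of 0.0604 to 0.0705). POLD2 codes for a smaller subunit of the same polymerase. POLD2 was called higher with both ASOs in both of the other lines, by 0.18 and 0.14 in NGP and 0.17 and 0.18 in SK-N-BE(2)c. POLD1, the catalytic subunit, was called higher in 3 of those 4 comparisons, by 0.22 to 0.38.

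POLE, the catalytic subunit of the leading strand polymerase, fell with ASO2 and rose with ASO10 in the lines that had both. POLE (ENSG00000177084) read 2608, 2720 and 2631 with ASO2, 3684, 3768 and 3608 with ASO10 and 3211, 3319 and 3324 with NCA in NGP. Counts in SK-N-BE(2)c were 2889, 2772 and 2758 with ASO2, 4982, 5219 and 5012 with ASO10 and 3997, 3756 and 3738 with NCA. NCA lay between the ASOs with no overlap in both lines. ASO2 gave -0.31 (SE 0.049, adjusted p = 6.99e-06) and -0.45 (SE 0.051, adjusted p = 8.97e-09), and ASO10 gave 0.17 (SE 0.049, adjusted p = 0.00566) and 0.40 (SE 0.051, adjusted p = 9.38e-08). The direct differences were -0.47 (SE 0.049, adjusted p = 7.26e-09) and -0.85 (SE 0.051, adjusted p = 2.26e-14). In IMR32, POLE ran from 3367 to 4468 with no call. Its partner POLE2 was lower with both ASOs, at -0.66 and -0.39 in NGP and -0.44 and -0.57 in SK-N-BE(2)c. Of the 9 polymerase and primase genes, 7 fell and 2 rose with ASO2 in SK-N-BE(2)c (33.4% and 33.6% of all genes did) and in NGP (28.1% and 30.6%). With ASO10, 6 fell and 2 rose in NGP (27.6% and 26.8% of genes), and 4 fell and 3 rose in SK-N-BE(2)c (31.1% and 27.8%). In IMR32, 5 fell with ASO1 (14.4% of genes), 4 fell with ASO2 (14.8%) and 0 rose. Their median log2 change was -0.45 with ASO2 and -0.067 with ASO10 in SK-N-BE(2)c, -0.63 and -0.24 in NGP, and -0.19 with ASO1 and -0.12 with ASO2 in IMR32.

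RPA1 and RPA2, subunits of the single-strand binding protein RPA, moved apart. RPA2 had the largest rise of any member with ASO10 in both lines, and RPA1 the largest fall with ASO10 in NGP. RPA2 (ENSG00000117748) read 1597, 1523 and 1515 with ASO2, 1879, 1835 and 1885 with ASO10 and 938, 821 and 995 with NCA in NGP. Its SK-N-BE(2)c libraries read 1246, 1187 and 1122 with ASO2, 1516, 1424 and 1502 with ASO10 and 710.5, 601 and 799 with NCA. The ASO libraries lay above NCA, and ASO10 above ASO2, with no overlap. ASO2 gave 0.75 (SE 0.066, adjusted p = 5.01e-10) and 0.76 (SE 0.078, adjusted p = 1.37e-09), and ASO10 gave 1.03 (SE 0.066, adjusted p = 2.07e-12) and 1.08 (SE 0.078, adjusted p = 2.29e-12). ASO2 against ASO10 gave -0.27 (SE 0.066, adjusted p = 0.000932) and -0.32 (SE 0.078, adjusted p = 0.000665). In IMR32 RPA2 ran from 483 to 690.3, where the groups overlapped and none was called.

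RPA1 (ENSG00000132383), the large subunit, read 1624, 1600 and 1500 with ASO2, 1067, 1061 and 1133 with ASO10 and 1838, 1829 and 1960 with NCA in NGP. The SK-N-BE(2)c libraries read 1303, 1393 and 1494 with ASO2, 862, 764 and 879 with ASO10 and 1411, 1483 and 1619 with NCA. ASO10 was far below both other groups. ASO10 gave -0.79 (SE 0.059, adjusted p = 4.24e-11) and -0.85 (SE 0.07, adjusted p = 4.04e-11), and ASO2 gave -0.25 (SE 0.059, adjusted p = 0.000766) and -0.11 (SE 0.07, adjusted p = 0.18), the last not called. The difference between the ASOs was 0.53 (SE 0.059, adjusted p = 2.88e-08) and 0.74 (SE 0.07, adjusted p = 3.32e-10). In IMR32, RPA1 ran from 1020 to 1346 with no call. RPA3, the small subunit, was called in none of the 9 comparisons within a line.

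LIG1, the ligase that seals Okazaki fragments, fell with ASO2 in NGP and SK-N-BE(2)c and with ASO1 in IMR32. LIG1 (ENSG00000105486) read 954, 1015 and 1033 with ASO2, 1667, 1776 and 1602 with ASO10 and 1646, 1749 and 1587 with NCA in NGP. Values in SK-N-BE(2)c were 737, 791 and 683 with ASO2, 1279, 1441 and 1413 with ASO10 and 1235, 1208 and 1166 with NCA. ASO2 stood below all others in both lines. ASO2 gave -0.73 (SE 0.062, adjusted p = 3.39e-10) and -0.71 (SE 0.068, adjusted p = 4.19e-10), and ASO10 gave 0.018 (SE 0.062, adjusted p = 0.826) in NGP. In SK-N-BE(2)c ASO10 gave 0.19 (SE 0.068, adjusted p = 0.0162), lost without ASO10 replicate 2 or 3 or NCA replicate 3 (adjusted p of 0.0527 to 0.0771). ASO10 libraries overlapped NCA in NGP and were apart from it in SK-N-BE(2)c. ASO2 against ASO10 gave -0.75 (SE 0.062, adjusted p = 1.69e-10) and -0.90 (SE 0.068, adjusted p = 3.32e-12). In IMR32 LIG1 read 1147, 1369, 1318 and 1323 with ASO1, 1441, 1448, 1412 and 1444 with ASO2 and 1504, 1560, 1597 and 1611 with NCA. Both ASOs lay below NCA there, and ASO1 was called (-0.29, SE 0.052, adjusted p = 0.000311). The difference between ASO1 and ASO2, -0.16 (SE 0.052, adjusted p = 0.0327), was lost without ASO1 replicate 1 or 3 or ASO2 replicate 2 or 4 (adjusted p of 0.0509 to 0.0929), and with no filter (0.0757), with equal totals (0.205), with edgeR (0.0512), with DESeq2 (0.0513) and without the libraries numbered 1 (0.0587). FEN1, the flap nuclease, was called higher with ASO2 in SK-N-BE(2)c (0.40) and lower with ASO10 in NGP (-0.34).

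RRM2, the regulated subunit of ribonucleotide reductase, fell with ASO10. RRM2 (ENSG00000171848) read 4087, 3963 and 3940 with ASO2, 2102, 2082 and 2368 with ASO10 and 3454, 3491 and 3824 with NCA in NGP. Counts in SK-N-BE(2)c were 3089, 3252 and 3212 with ASO2, 2251, 1840 and 2103 with ASO10 and 3712, 3465 and 3824 with NCA. ASO10 lay far below the other groups in both lines, and ASO2 lay just above NCA in NGP and just below it in SK-N-BE(2)c. ASO10 gave -0.72 (SE 0.057, adjusted p = 8.91e-11) and -0.83 (SE 0.062, adjusted p = 4.84e-12). ASO2 gave 0.16 (SE 0.057, adjusted p = 0.0206) in NGP, lost without ASO2 replicate 1 or NCA replicate 1 or 2 (adjusted p of 0.0595 to 0.101), and with no filter (0.0543) and with equal totals (0.196). It gave -0.20 (SE 0.062, adjusted p = 0.00528) in SK-N-BE(2)c. The call with ASO2 was thus opposite in the 2 lines. Between the ASOs the difference was 0.87 (SE 0.057, adjusted p = 1.7e-12), the largest positive one of any member in NGP, and 0.63 (SE 0.062, adjusted p = 7.21e-10). In IMR32 RRM2 ran from 2720 to 3415 with no call. Of the other genes of nucleotide supply, TK1 (thymidine kinase) was called lower with both ASOs in both lines, at -0.19 to -0.43. RRM1, the large subunit of the reductase, changed by -0.23 and -0.13 in NGP, both called, and TYMS (thymidylate synthase) was called in 1 comparison with NCA (0.15 with ASO10 in SK-N-BE(2)c).

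E2F1, the transcription factor whose targets include many members, was slightly lower with each ASO except ASO10 in SK-N-BE(2)c. E2F1 (ENSG00000101412) read 1223, 1133, 1187 and 1293 with ASO1, 1231, 1268, 1199 and 1121 with ASO2 and 1376, 1352, 1368 and 1289 with NCA in IMR32. Values in NGP were 1588, 1750 and 1624 with ASO2, 1775, 1815 and 1869 with ASO10 and 2026, 2067 and 1923 with NCA. Its SK-N-BE(2)c libraries read 2159, 2152 and 2296 with ASO2, 2830, 2876 and 2852 with ASO10 and 2857, 2876 and 2846 with NCA. ASO10 overlapped NCA in SK-N-BE(2)c, where ASO2 lay well below. ASO2 gave -0.38 (SE 0.052, adjusted p = 2.82e-07) in SK-N-BE(2)c and -0.28 (SE 0.057, adjusted p = 0.000186) in NGP, and ASO2 against ASO10 gave -0.37 (SE 0.052, adjusted p = 3.59e-07) in SK-N-BE(2)c. ASO10 gave -0.0036 (SE 0.052, adjusted p = 0.959) there. In NGP ASO10 gave -0.14 (SE 0.057, adjusted p = 0.0419), lost without ASO2 replicate 1 or 3, ASO10 replicate 1 or 2 or NCA replicate 1 or 2 (adjusted p of 0.0502 to 0.143), and with no filter (0.077), with TMM scaling (0.0731), with edgeR (0.0693) and with DESeq2 (0.082). ASO10 and NCA did not overlap in NGP. ASO2 against ASO10 in NGP, -0.14 (SE 0.057, adjusted p = 0.0404), was lost without ASO2 replicate 1 or 3, ASO10 replicate 1, 2 or 3 or NCA replicate 1 (adjusted p of 0.0534 to 0.167) and with no filter (0.0755). In IMR32 the changes were -0.16 (SE 0.052, adjusted p = 0.0284) and -0.16 (SE 0.052, adjusted p = 0.0218). The call with ASO1, whose libraries overlapped NCA, was lost without ASO1 replicate 2 or 3 or NCA replicate 1, 2 or 3 (adjusted p of 0.0601 to 0.103) and with no filter (0.0696). The ASO2 libraries did not overlap NCA. Their call was lost without ASO2 replicate 4 or NCA replicate 2 or 3 (adjusted p of 0.052 to 0.0886) and with no filter (0.0532).

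E2F2, a related factor, rose in SK-N-BE(2)c. E2F2 (ENSG00000007968) read 1684, 1696 and 1730 with ASO2, 1386, 1489 and 1429 with ASO10 and 980.5, 1048 and 883 with NCA there. The groups did not overlap, with 0.81 (SE 0.064, adjusted p = 8.25e-12) for ASO2 and 0.57 (SE 0.064, adjusted p = 1.7e-08) for ASO10. ASO2 lay above ASO10 by 0.25 (SE 0.064, adjusted p = 0.00135), a call lost with equal totals (adjusted p of 0.0678). In NGP the values ran from 1462 to 1677 with changes of 0.0053 and 0.059, and in IMR32 from 285 to 391, with no call in either.

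Cyclin E genes fell in SK-N-BE(2)c. CCNE1 (ENSG00000105173) read 87.3, 97 and 91.2 with ASO2, 99.5, 102 and 83.5 with ASO10 and 142, 107 and 143 with NCA there. In NGP it read 115, 122 and 139 with ASO2, 84.6, 79.9 and 122 with ASO10 and 144, 97.5 and 142 with NCA. ASO groups lay below NCA in SK-N-BE(2)c and overlapped it in NGP. ASO2 gave -0.49 (SE 0.15, adjusted p = 0.00567) and ASO10 -0.45 (SE 0.15, adjusted p = 0.0132) in SK-N-BE(2)c, the latter lost without ASO10 replicate 3 or NCA replicate 1 or 3 (adjusted p of 0.0653 to 0.0776). In NGP ASO10 gave -0.42 (SE 0.17, adjusted p = 0.041), lost without ASO2 replicate 2, ASO10 replicate 1 or 2 or NCA replicate 1 or 3 (adjusted p of 0.054 to 0.18), and with no filter (0.0721) and with DESeq2 (0.0765). ASO2 against ASO10 in NGP, 0.41 (SE 0.17, adjusted p = 0.0407), was lost without ASO2 replicate 2 or 3 or ASO10 replicate 1 or 2 (adjusted p of 0.076 to 0.181), and with no filter (0.0727), with equal totals (0.0812), with TMM scaling (0.0539), with edgeR (0.0673) and with DESeq2 (0.0994). CCNE2 codes for the other cyclin E. CCNE2 (ENSG00000175305) read 323, 355 and 322 with ASO2, 381, 268 and 354 with ASO10 and 462, 496 and 505 with NCA in SK-N-BE(2)c. Both ASOs were below NCA and overlapped each other, at -0.55 (SE 0.10, adjusted p = 3.53e-05) and -0.56 (SE 0.10, adjusted p = 3.9e-05). CCNE2 ran from 139 to 232 in NGP and 208 to 304 in IMR32, and CCNE1 from 136 to 215 in IMR32, with no call. UHRF1, which joins DNA methylation to replication, ran from 1609 to 2318 in IMR32 with no call.

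NGP and SK-N-BE(2)c share no library, so their changes can be set side by side. With ASO2, 19 members were called lower in both lines and 5 higher in both, against 24% and 25.4% of the 12637 genes tested in both. These members were among the 31 called in NGP and the 36 called in SK-N-BE(2)c. RRM2 was called in opposite directions, and the share of all genes so called is not given. With ASO10, 15 were lower and 5 higher in both, against 20.5% and 19.1%, which is 66.7% of the 30 called in NGP and 62.5% of the 32 in SK-N-BE(2)c. Over the 49 members the changes in the 2 lines correlated with Pearson's r = 0.886 and Spearman's rho = 0.856 for ASO2 and 0.853 and 0.844 for ASO10. Over all genes r was 0.811 and 0.828. These are descriptions across genes, which share libraries within a line and are not independent replicates.

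The difference between the lines was tested as an interaction over all 18 libraries. For ASO2, 14 of 49 members differed, 10 with a more positive change in SK-N-BE(2)c and 4 with a more negative one, against 10.5% and 9.37% of genes (19.9% in all). With equal totals the split was 6 and 9, so its direction turned under that scaling. It was 9 and 4 with TMM scaling, 8 and 4 with edgeR and 10 and 4 with DESeq2. For ASO10, 14 differed, 12 more positive and 2 more negative, against 9.35% and 9.86% (19.2% in all). The number called for ASO2 was 9 without NGP ASO2 replicate 1, and for ASO10 9 without NGP ASO10 replicate 1 and 8 without SK-N-BE(2)c ASO10 replicate 2. The more negative ones for ASO2 were 2 without NGP ASO2 replicate 1 and 7 without NGP NCA replicate 3, and the more positive ones for ASO10 were 7 without SK-N-BE(2)c ASO10 replicate 2. Without any of 6 libraries (NGP ASO10 replicates 1 and 3, NGP NCA replicate 2, SK-N-BE(2)c ASO10 replicate 2 and NCA replicates 1 and 3) 1 of the 2 more negative ones for ASO10 was left. E2F2 had the largest difference with ASO2, 0.81 (SE 0.087, adjusted p = 2.26e-07), and with ASO10 differed by 0.51 (SE 0.087, adjusted p = 0.000146). The MCM genes MCM2, MCM3, MCM5 and MCM7 were more positive in SK-N-BE(2)c for both ASOs, by 0.27 to 0.40 with ASO2 and 0.30 to 0.42 with ASO10. RFC3 was more negative for both (-0.35, SE 0.11, adjusted p = 0.0191 and -0.55, SE 0.11, adjusted p = 0.00046), the first of these lost without NGP ASO2 replicate 1 or NGP NCA replicate 2 (adjusted p of 0.0521 to 0.0621) and with no filter (0.0773). POLA1 did not differ between lines by call, at -0.31 (SE 0.12, adjusted p = 0.0743) and 0.083 (SE 0.12, adjusted p = 0.681), and neither did PRIM2 (0.058, SE 0.21, adjusted p = 0.883 and 0.095, SE 0.21, adjusted p = 0.794).

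**Figure D3:**
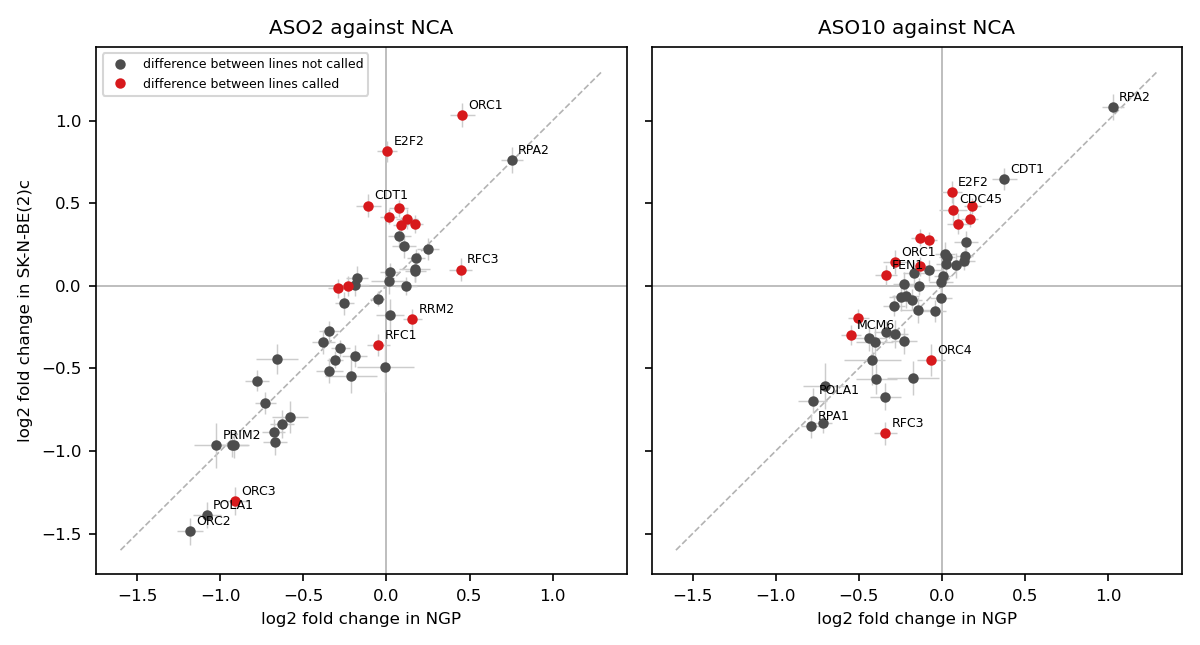
Log2 fold change against NCA in NGP (x axis) and SK-N-BE(2)c (y axis) for the 49 members matched in both lines, with ASO2 on the left and ASO10 on the right; bars are SE, the dashed line marks equal change, and red marks members whose change differed between the lines. Changes in the lines correlated at r = 0.886 and 0.853, and E2F2 lies above the dashed line and RFC3 below it in both panels.

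Levels can be compared between genes only per length of exon. In NCA libraries PCNA had the highest normalized count per kb of annotated exon in each line, at 3560 ± 241 in SK-N-BE(2)c and 2280 ± 98.4 in NGP (SD, n = 3 each) and 1340 ± 132 in IMR32 (n = 4). MCM7 followed in NGP and SK-N-BE(2)c, at 1740 ± 75 and 2120 ± 86.6, and MCM3 in IMR32, at 1130 ± 59.4. Cyclin E genes were near the bottom, with CCNE2 lowest in IMR32 (54 ± 4.85) and NGP (44.2 ± 8.73), and ORC4 was lowest in SK-N-BE(2)c (40.3 ± 3.41). CCNE2 and CCNE1 did not differ beyond their spread in NGP, where CCNE1 was at 50 ± 10.2. ORC4 and PRIM2 did not in SK-N-BE(2)c, where PRIM2 was at 46.1 ± 7.87. The length used joins all annotated exons of a gene, 8.91 kb for ORC4, and the ranks depend on it. IMR32 was scaled apart from the other lines, so its levels are not set against theirs.

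Other genes of the pathway were taken from 5 further lists. Among 17 cyclins, kinases and inhibitors of G1/S, CDKN1A, the p21 inhibitor of cyclin-dependent kinases, rose in IMR32 and NGP. In NGP the NCA libraries had 2311 ± 290.5 normalized counts of CDKN1A, the ASO2 libraries 6261 ± 327 and the ASO10 libraries 7085 ± 444 (mean ± SD, n = 3), changes of 1.44 (SE 0.068, adjusted p = 1.37e-14) and 1.62 (SE 0.068, adjusted p = 1.17e-15). In IMR32 the NCA libraries had 616 ± 47, the ASO1 libraries 887 ± 51.5 and the ASO2 libraries 1284 ± 173 (n = 4), changes of 0.53 (SE 0.08, adjusted p = 4.53e-05) and 1.05 (SE 0.08, adjusted p = 1.78e-08). CDKN1A was low in SK-N-BE(2)c, where NCA libraries averaged 48.9 ± 3.92, those of ASO2 68.2 ± 9.58 and those of ASO10 64.3 ± 9.29. The change there was 0.46 (SE 0.19, adjusted p = 0.0322) for ASO2 and 0.38 (SE 0.19, adjusted p = 0.0858) for ASO10, the latter not called. CDK6, a kinase that acts with cyclin D, changed by -1.24 (SE 0.067, adjusted p = 4.13e-15) with ASO2 and -0.82 (SE 0.067, adjusted p = 3.49e-11) with ASO10 in SK-N-BE(2)c. Of the list's tested genes, 10 of 16 rose and 3 fell with ASO2 in NGP (30.6% and 28.1% of all genes did) and 4 and 7 with ASO10 (26.8% and 27.6%). Of 15 in SK-N-BE(2)c, 11 rose and 3 fell with ASO2 (33.6% and 33.4% of genes), and 6 and 6 with ASO10 (27.8% and 31.1%). In IMR32 3 of 16 rose and 1 fell with ASO1 (13.6% and 14.4%), and 6 and 1 with ASO2 (17.6% and 14.8%).

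RBL1, a pocket protein that restrains E2F, was higher with ASO10. RBL1 averaged 199.8 ± 9.92 in the NCA, 209 ± 16.8 in the ASO2 and 444 ± 14.3 in the ASO10 libraries of NGP. Those of SK-N-BE(2)c averaged 429.5 ± 13.1, 299.7 ± 30.7 and 801 ± 66.2. ASO2 against ASO10 gave -1.08 (SE 0.098, adjusted p = 8.13e-10) and -1.42 (SE 0.088, adjusted p = 5.55e-14). LIN52, a subunit of the complex that holds E2F targets off, fell with ASO2, at -1.14 (SE 0.15, adjusted p = 3.23e-07) in NGP and -1.49 (SE 0.13, adjusted p = 9.61e-11) in SK-N-BE(2)c. Of the 15 pocket protein and E2F genes, 3 rose and 8 fell with ASO2 in SK-N-BE(2)c (33.6% and 33.4% of all genes did) and 4 and 7 with ASO10 (27.8% and 31.1%). In NGP 3 rose and 7 fell with ASO2 (30.6% and 28.1% of genes) and 5 and 6 with ASO10 (26.8% and 27.6%). In IMR32 1 rose and 2 fell with ASO1 (13.6% and 14.4%), and 3 and 3 with ASO2 (17.6% and 14.8%).

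Further fork and checkpoint genes were called in both directions. DSCC1, a part of the clamp loader for sister chromatid cohesion, fell, at -1.48 (SE 0.12, adjusted p = 1.25e-10) with ASO2 and -0.70 (SE 0.12, adjusted p = 2.22e-05) with ASO10 in NGP, and -1.62 (SE 0.10, adjusted p = 1.17e-13) and -1.07 (SE 0.10, adjusted p = 9.66e-10) in SK-N-BE(2)c. POLE3, a small subunit of polymerase epsilon, rose by 0.90 (SE 0.063, adjusted p = 9.62e-12) with ASO2 and 0.84 (SE 0.063, adjusted p = 3.84e-11) with ASO10 in NGP. Of 28 genes of the list tested in NGP, 7 rose and 14 fell with ASO2 (30.6% and 28.1% of all genes did) and 7 and 12 with ASO10 (26.8% and 27.6%). Of 29 in SK-N-BE(2)c, 9 rose and 13 fell with ASO2 (33.6% and 33.4% of genes) and 10 and 8 with ASO10 (27.8% and 31.1%). Of 28 in IMR32, 1 rose and 4 fell with ASO1 (13.6% and 14.4%) and 2 and 1 with ASO2 (17.6% and 14.8%). In the list of nucleotide supply and chromatin assembly, CHAF1A, the large subunit of the histone chaperone CAF-1, changed by -1.53 (SE 0.063, adjusted p = 8.63e-16) with ASO10 in NGP and -1.17 (SE 0.064, adjusted p = 1.15e-14) in SK-N-BE(2)c. RRM2B, the p53-induced reductase subunit, rose by 1.36 (SE 0.11, adjusted p = 7.43e-11) with ASO2 in NGP and 0.88 (SE 0.059, adjusted p = 3.54e-09) in IMR32. Of its 16 genes, to be read against the same shares of all genes, 7 rose and 4 fell with ASO2 (30.6% and 28.1%) and 3 and 6 with ASO10 (26.8% and 27.6%) in NGP. Against NCA in SK-N-BE(2)c, 6 rose and 4 fell with ASO2 (33.6% and 33.4%) and 3 and 6 with ASO10 (27.8% and 31.1%). In IMR32 2 rose and 0 fell with ASO1 (13.6% and 14.4%) and 5 and 1 with ASO2 (17.6% and 14.8%).

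Genes of G2 and mitosis, which mark later phases of the cycle, were more often higher than lower with ASO2 against ASO10. Of 27, 21 were higher and 4 lower with ASO2 than ASO10 in SK-N-BE(2)c, where 34.6% and 30.8% of all genes were, and 15 and 7 in NGP, where 30.6% and 28% were. Against NCA in SK-N-BE(2)c, 18 rose and 3 fell with ASO2 (33.6% and 33.4% of genes) and 7 and 10 with ASO10 (27.8% and 31.1%). In NGP 10 rose and 6 fell with ASO2 (30.6% and 28.1%) and 5 and 11 with ASO10 (26.8% and 27.6%), and in IMR32 1 and 0 with ASO1 (13.6% and 14.4%) and 7 and 0 with ASO2 (17.6% and 14.8%). BUB1, a kinase of the mitotic checkpoint, averaged 915 ± 59.7 in the NCA, 1163 ± 112 in the ASO2 and 462 ± 37.9 in the ASO10 libraries of SK-N-BE(2)c. ASO2 against ASO10 gave 1.33 (SE 0.078, adjusted p = 2.03e-14) there and 0.88 (SE 0.064, adjusted p = 1.2e-11) in NGP.

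Members without an E2F motif in their promoter window had a lower median change than those with one in NGP and SK-N-BE(2)c. This is a description over few genes, and the difference was not tested. With ASO2 in SK-N-BE(2)c the median log2 change was 0.049 over 21 members with a motif (8 higher, 8 lower) and -0.36 over 21 without (4 higher, 12 lower). With ASO10 there it was 0.093 (9 and 5) against -0.075 (4 and 8). In NGP the medians were -0.11 (2 higher, 9 lower) with a motif and -0.19 (5 and 11) without one for ASO2, so more members without a motif were called in each direction. With ASO10 they were -0.076 (3 and 8) and -0.23 (1 and 14). Of all genes in SK-N-BE(2)c, 33.6% were called higher and 33.4% lower with ASO2, and 27.8% and 31.1% with ASO10. The shares in NGP were 30.6% and 28.1% with ASO2 and 26.8% and 27.6% with ASO10. In IMR32, with 22 members holding a motif, the medians were -0.090 and -0.053 with ASO1 and 0.0084 and 0.015 with ASO2. The promoters printed above lie on both sides: POLA1 and POLA2 with a match and PRIM1 and PRIM2 without all fell with ASO2 in SK-N-BE(2)c and NGP.

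The members called lower in every comparison with NCA are long. POLA1 spans 303 kb, PRIM2 332 kb and POLD3 175 kb in GENCODE 29, and these are the longest members. The length at which members were divided, 50 kb, was chosen after their values were seen. With ASO2 in SK-N-BE(2)c, the median change was -0.40 over the 14 members of at least 50 kb and -0.0035 over the shorter ones. Over all 13242 genes with a span the medians were -0.32 and 0.13. With ASO10 there they were -0.33 and 0.064 over members and -0.23 and 0.051 over all genes. In NGP they were -0.28 and -0.11 over members and -0.18 and 0.086 over all genes with ASO2, and -0.28 and -0.13 over members and -0.17 and 0.033 over all genes with ASO10. In IMR32 the medians of the long and the shorter members hardly differed. They were -0.084 over 15 members and -0.074 over the others with ASO1, and 0.015 and 0.042 with ASO2. The medians over all genes there were -0.10 and 0.045 with ASO1 and -0.076 and 0.042 with ASO2. Spearman's rho of change and span over 49 members was -0.355 with ASO2 and -0.31 with ASO10 in SK-N-BE(2)c, and -0.346 and -0.264 in NGP. Over the 50 members in IMR32 it was -0.155 with ASO1 and -0.295 with ASO2. Over all genes rho was, in the same order, -0.299 and -0.266, -0.214 and -0.239, and -0.276 and -0.19. These values are given as descriptions. RFC3, at 149 kb, changed by 0.097 with ASO2 and -0.89 with ASO10 in SK-N-BE(2)c, and ORC2, at 54.7 kb, by -1.49 and -0.33. The part of gene length in the members' changes was not tested.

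**Figure D4:**
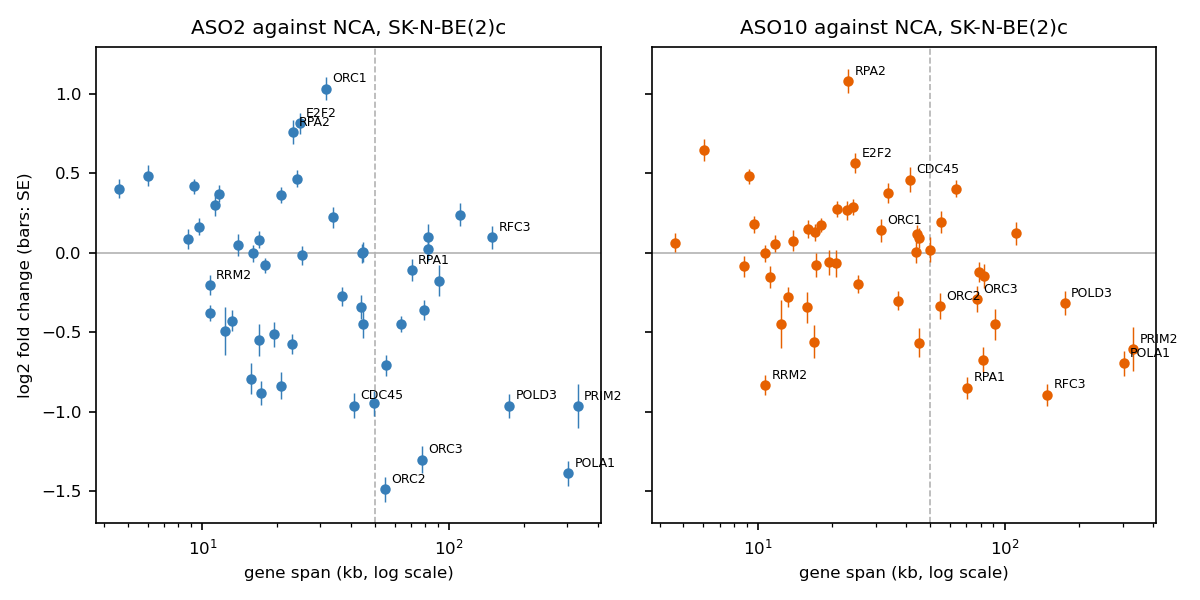
Log2 fold change against NCA in SK-N-BE(2)c (y axis, bars are SE) of the 49 matched members by gene span in GENCODE 29 (x axis, kb on a log scale), with ASO2 on the left and ASO10 on the right; the dashed line is at 50 kb. POLA1 (303 kb) and PRIM2 (332 kb) sit at the right with negative changes in both panels, while RPA2 and E2F2, which rose, are shorter than 50 kb.

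Some members share sequence or exons with other genes, and the counting of such reads is not given in the sources used here. In GENCODE 29, 6 members overlap an exon of another gene on the same strand and 17 on the opposite strand, among them PRIM1 with NACA, FEN1 with FADS2, RFC4 with EIF4A2, MCM7 with AP4M1 and TYMS with ENOSF1. FEN1, PCNA, POLD2, RFC3, RFC5, RPA2, RRM2 and TYMS also have annotated pseudogene copies, so their values are uncertain to that extent.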

How the data were processed

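The 30 libraries were measured by RNA-seq in 9 groups, defined by cell line and ASO. The authors deposited gene counts already divided by library size factors, so the values are a normalized signal, not raw counts. Per the submitters' processing notes the tools were FastQC 0.11.8, cutadapt 1.18, STAR 2.6.0, HTSeq 0.6.1 and DESeq2 1.42.0 with genome build hg19; their settings are not given in the sources used here. Libraries were made by either of 2 kits, per the labels' protocols, and which library had which is not stated there. Whole reads were recovered from the steps of the deposited values, within 0.02 of a whole number for 100% of values, and gave the depths. The column of SK-N-BE(2)c NCA replicate 2 has a step so near 1 that it could not be told from rounding by that check alone. Gene IDs were matched to symbols for 99.9% of the genes in IMR32 and 89.8% in each other line. In IMR32, 174 entries without an Ensembl ID, with 0.172% of all values, were left out.

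Values were analysed as log2(value + 1) with limma 3.58.1 (R 4.3.3, trend), separately by line over all groups, for genes with a mean of at least 10. P-values were adjusted by Benjamini-Hochberg over all genes. The difference between lines was an interaction over NGP and SK-N-BE(2)c, which were scaled jointly. The tests were tried on simulated data first. Alternatives were pseudocounts of 0.5 and 5, no filter, a mean of at least 50, equal totals, TMM, edgeR 4.0.16 and DESeq2 1.42.0 on recovered reads, a replicate block and each library left out; leaving out the IMR32 libraries numbered 1 was chosen after seeing the data. Replicates of a group differed beyond sampling noise in every pair (lowest chi-square per degree of freedom 1.27). The members and lists were chosen with earlier results of these data known.

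Members named in full were, per comparison with NCA, the 3 with the largest change in each direction among those called with groups apart (2 between ASOs), those called with one sign in all 6 or with opposite signs by the ASOs of a line, and E2F1, CCNE1, CCNE2, CDC6, CDT1, PCNA and RRM2, 26 in all. Other lists could name the 2 called genes with the largest change per comparison. Members named beside these were picked after their values were seen.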

Additional observations from a re-analysis of the deposited data

Results flagged for a closer look

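In 8 of 78 groups of 4 IMR32 libraries looked at, 1 library lay so far from the others that the gap, as a share of the group's range, exceeded Dixon's critical value, which chance gives in about 1 in 20 groups. ORC1 read 821 in ASO2 replicate 3, where the others read 963.3 to 991.9. RFC3 read 1385 in that library, where the others read 1474 to 1488. POLD3 read 976.2 in ASO2 replicate 1, against 828.5 to 833.3, and E2F2 read 391.2 there, against 334.1 to 336.2. MCM3 read 4464 in NCA replicate 1, against 4009 to 4062. RPA1 read 1346 in ASO1 replicate 1, against 1111 to 1150. CDC45 read 908.1 in ASO1 replicate 4, against 783.9 to 795.2, and 828.9 in NCA replicate 2, against 904.9 to 912.3.

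Effects of ASO2 that differed between SK-N-BE(2)c and NGP by the interaction test (limma, adjusted over all genes) are given as the SK-N-BE(2)c log2 change minus the NGP one. They were more positive for E2F2 (0.8093), CDT1 (0.5935), ORC1 (0.5768), MCM7 (0.4046), MCM2 (0.3943), FEN1 (0.2798), MCM3 (0.2782), MCM5 (0.2728), RRM1 (0.2275) and PCNA (0.2017). They were more negative for ORC3 (-0.3905), RRM2 (-0.3589), RFC3 (-0.3493) and RFC1 (-0.31). For ASO10 they were more positive for E2F2 (0.508), ORC1 (0.4238), MCM2 (0.4195), FEN1 (0.3999), CDC45 (0.3916), MCM3 (0.3521), MCM5 (0.3041), MCM7 (0.2996), POLD1 (0.2806), MCM6 (0.2475), RRM1 (0.2472) and POLE (0.2385). They were more negative for RFC3 (-0.5526) and ORC4 (-0.3835). The call for PCNA was lost with no filter (adjusted p of 0.118), equal totals (0.174), TMM scaling (0.0507) and edgeR (0.0671), and without any 1 of 11 libraries (0.0549 to 0.128). For ASO10, that for ORC4 was lost without any 1 of 6 libraries (0.0506 to 0.139), with no filter (0.0878) and with edgeR (0.0508), and that for CDC45 without any 1 of 8 (0.0512 to 0.0803) and with no filter (0.111). These settings were not run for MCM2, MCM5, MCM6, FEN1, RRM1, RFC1 and POLD1 in the interaction.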

How the results depend on the processing

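Of 160 comparisons of named members, 3112 values under the alternatives held 2933 on the same side of the threshold, 179 that lost the call and 0 that turned direction; of the lost ones 130 came from leaving out 1 library. The pseudocounts and the mean of at least 50 lost 0 calls. The counts of calls in IMR32 were the least steady, and IMR32 and the interaction limit what small changes can show. The recovered reads called 13, 9 and 7 members with edgeR in IMR32 (ASO1 against NCA, ASO2 against NCA, ASO1 against ASO2), 32, 27 and 31 in NGP and 36, 34 and 36 in SK-N-BE(2)c (ASO2 and ASO10 against NCA, ASO2 against ASO10). The cause of the changes listed next was not tested.

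ASO1 against NCA in IMR32 called 3 members higher with equal totals and 2 with TMM or edgeR, against 1. ASO1 against ASO2 called 5 with no filter, 4 of them lower, and 5 with equal totals, 2 higher and 3 lower. With equal totals, ASO2 against NCA in NGP called 4 higher and ASO2 against ASO10 in SK-N-BE(2)c 8 higher. The interaction for ASO2 called 8 with no filter (6 more positive, 2 more negative) and 6 and 9 with equal totals. That for ASO10 called 8 with no filter (7 and 1), and edgeR called 1 more negative. With equal totals the median of the members for ASO2 against NCA in IMR32 turned from 0.018 to -0.016, and with TMM that for ASO10 in SK-N-BE(2)c from -0.0036 to 0.024. Without the IMR32 libraries numbered 1, a choice made after seeing the data, 19 members were called for ASO1 against NCA (3 higher, 16 lower), 15 for ASO2 against NCA (5 and 10) and 14 for ASO1 against ASO2 (2 and 12).

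With each library left out in turn, calls ranged as follows. In IMR32 ASO1 against NCA called 7 to 15 (1 to 3 higher, 6 to 14 lower), ASO2 against NCA 6 to 13 (2 to 6, 3 to 7) and ASO1 against ASO2 3 to 13 (0 to 2, 3 to 12). In NGP ASO2 against NCA called 28 to 33 (6 to 9, 21 to 24), ASO10 against NCA 23 to 30 (3 to 5, 19 to 25) and ASO2 against ASO10 27 to 32 (12 to 15, 13 to 17). In SK-N-BE(2)c ASO2 against NCA called 35 to 36 (12 to 13, 23 to 23), ASO10 against NCA 28 to 33 (12 to 16, 16 to 17) and ASO2 against ASO10 31 to 38 (11 to 14, 20 to 24). The interaction called 9 to 16 for ASO2 (7 to 11, 2 to 7) and 8 to 14 for ASO10 (7 to 12, 1 to 3).

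Groups share replicate numbers, which the labels tie to nothing else. Same-numbered libraries correlated, in their deviations from group means, at -0.0057 to 0.332 in IMR32 and -0.065 to 0.119 in the other lines. The main fits did not pair libraries by number. In IMR32 those numbered 1 did correlate between every pair of groups, at 0.261 to 0.332, so the counts of calls there depend on this choice. In IMR32 a library correlated best with its own number in 4, 6 and 4 of 8 cases, and in the other lines in 0 to 4 of 6. With the replicate number as a block, 22 members were called for ASO1 against NCA in IMR32 (3 higher, 19 lower). For ASO2 against NCA 20 were called (10 and 10), and for ASO1 against ASO2 19 (3 and 16). The share of all genes called is not given for the block or for the fits without the libraries numbered 1. The block ended 0 of 143 calls of named members.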
